A study of Macaca nemestrina with 15 samples.

Results

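The genes described here encode proteins of the cytosolic ribosome, and they are a part of the full set of such genes. They are the 38 of 28865 features in the count table whose symbol starts with RPL or RPS and a digit, or with RPLP, or is RPSA, with the RPS6K kinases left out. By symbol, 19 encode proteins of the large subunit and 12 encode proteins of the small subunit. Another 6 are copies of a subunit gene (*RPL3L*, *RPL22L1*, *RPL26L1*, *RPL36AL*, *RPL39L* and *RPS27L*), and *RPS19BP1* encodes a binding partner of RPS19 that is not itself a subunit. A filter on low counts kept 36 of the 38 for testing. The 2 left out were *RPL3L*, a muscle form, with 0 to 1 counts per library, and *RPL39L*, a testis-enriched form, with 0 to 4. *RPLP0*, *RPSA*, *RPS27A*, *RPL5*, *RPS6*, *RPL22*, *RPL10*, *RPS4X*, *RPS4Y1*, *RPS4Y2*, *RPL10L* and *RPL7L1* were not analysed here.

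A ribosome is built from a large subunit, which joins amino acids, and a small subunit, which reads the mRNA. Most of its proteins are needed in equal numbers. The mRNAs of ribosomal proteins share a pyrimidine-rich start, the terminal oligopyrimidine (TOP) tract, through which mTOR signalling sets their translation together. In resting blood lymphocytes these mRNAs are among the most abundant, and activation of the cells raises ribosome production.

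The data are RNA-seq counts from the peripheral blood mononuclear cells (PBMCs) of 5 pig-tailed macaques (*Macaca nemestrina*). Each animal received islatravir (ISL), a nucleoside reverse transcriptase translocation inhibitor, by gavage at 30 mg/kg once a week, 12 doses in all. Each was sampled before treatment (labelled control), at week 12, and at a time labelled week 18. The study places the last of these after the final dose. This gave 15 libraries, 5 per time point. Every animal was treated and none was sequenced without treatment, so drug, time and handling cannot be told apart. The strain was not stated in the labels, and PBMCs are a mixture, in which fewer cells of a type and less RNA per cell cannot be told apart. T-cell, B-cell, NK-cell and monocyte markers were all present.

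Per library, 5610597 to 10379572 counts fell on features, and 75685 to 155399 of them on the 38 genes. The week 12 and week 18 libraries of animal Z15303 had the lowest totals, 5610597 and 5886482. Values are counts per 1000000 counts of a library (CPM), scaled with edgeR's TMM factors. No gene length was at hand, so levels are compared between libraries for the same gene and not between genes. Ribosomal protein genes have many processed copies in a primate genome, and STAR's gene counting leaves out reads that match more than 1 place, so the levels are uncertain for that reason too. The names of the libraries hold dates, by which an animal's later samples fall 56 or 57 days and then 84 days after its first, although the labels call them week 12 and week 18. The study's own text and a figure legend differ on how many weeks after the last dose the final sample was taken. Those dates were the same in Z15303, Z15339 and Z15408, and Z15228 and Z13076 each had dates of their own. What the dates mark is not stated.

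The share of all counts that fell on the 38 genes, which is not that of all ribosomal protein genes, differed more between animals than between time points. Before treatment it was 1.497% in Z15228, 1.30% in Z13076, 1.07% in Z15339, 1.27% in Z15303 and 0.957% in Z15408, with a mean of 1.22% ± 0.211 (SD, n = 5). At week 12 the shares were 1.495% in Z15228, 0.923% in Z13076, 1.18% in Z15339, 2.09% in Z15303 and 1.34% in Z15408 (1.41% ± 0.437). At week 18 they were 1.36% in Z15228, 0.967% in Z13076, 1.36% in Z15339, 1.89% in Z15303 and 1.23% in Z15408 (1.36% ± 0.336). The groups overlapped at all time points. Each share had a 95% Wilson interval of at most 0.0118 percentage points to either side, which covers counting error only. The mean change within an animal was 0.190 ± 0.447 percentage points at week 12, 0.144 ± 0.379 at week 18, and −0.0455 ± 0.157 between week 12 and week 18 (SD, n = 5). In each case the spread between animals was larger than the mean.

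**Figure D1:**
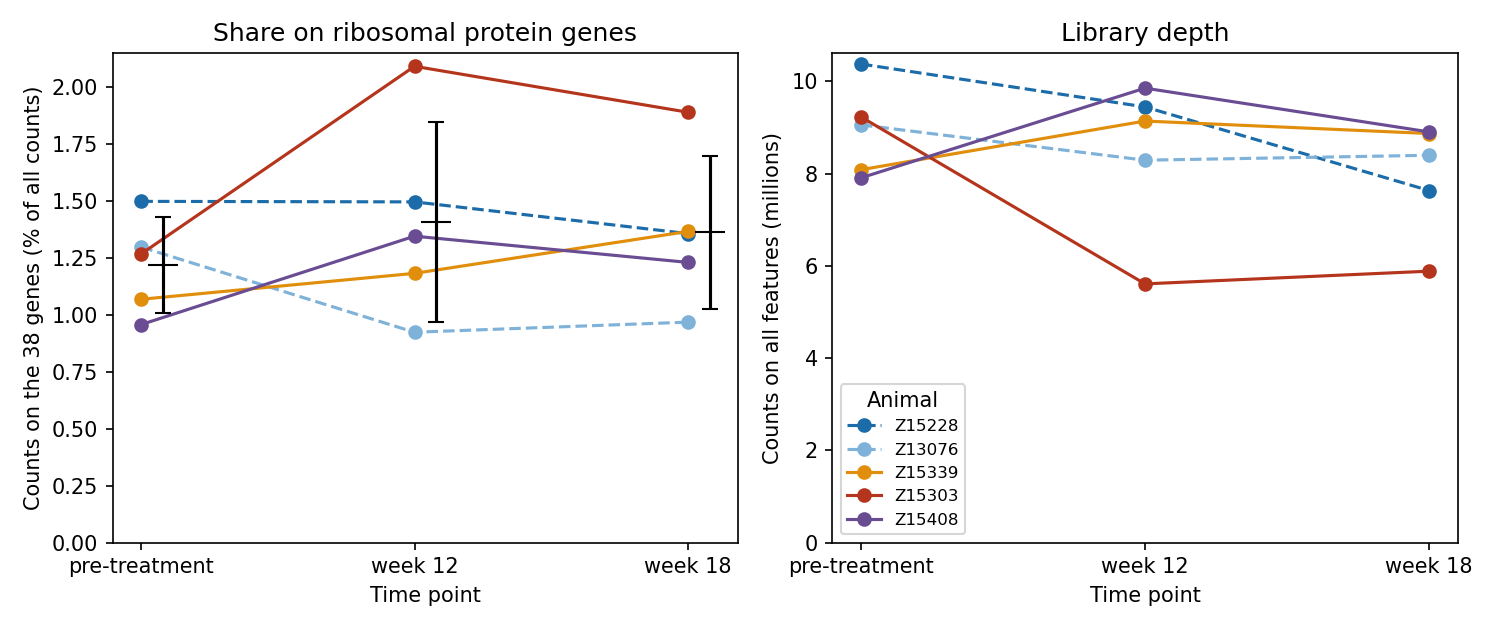
Left, counts on the 38 ribosomal protein genes as a percent of all counts in each library, by time point, with 1 line per animal and the mean ± SD of 5 animals in black. Right, counts on all features in each library, in units of 1000000. Solid lines are the 3 animals with shared library dates, whose shares went up from pre-treatment to week 12, and dashed lines are Z15228 and Z13076. Z15303 reached 2.09% at week 12 and 1.89% at week 18 in the 2 shallowest libraries.

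The libraries of Z15303 at week 12 and week 18 stood above the rest. Of the 36 tested genes, 33 had their highest CPM in Z15303 at week 12 and 2 in Z15303 at week 18. The lowest value lay in Z15408 before treatment for 16 genes, in Z13076 at week 12 for 14, in Z13076 at week 18 for 4 and in Z15339 before treatment for 2. The highest library was 1.74 to 4.74 times the lowest, with a median of 2.77 times. Those 2 libraries also had the fewest counts, and the part of depth in this pattern was not tested.

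**Figure D2:**
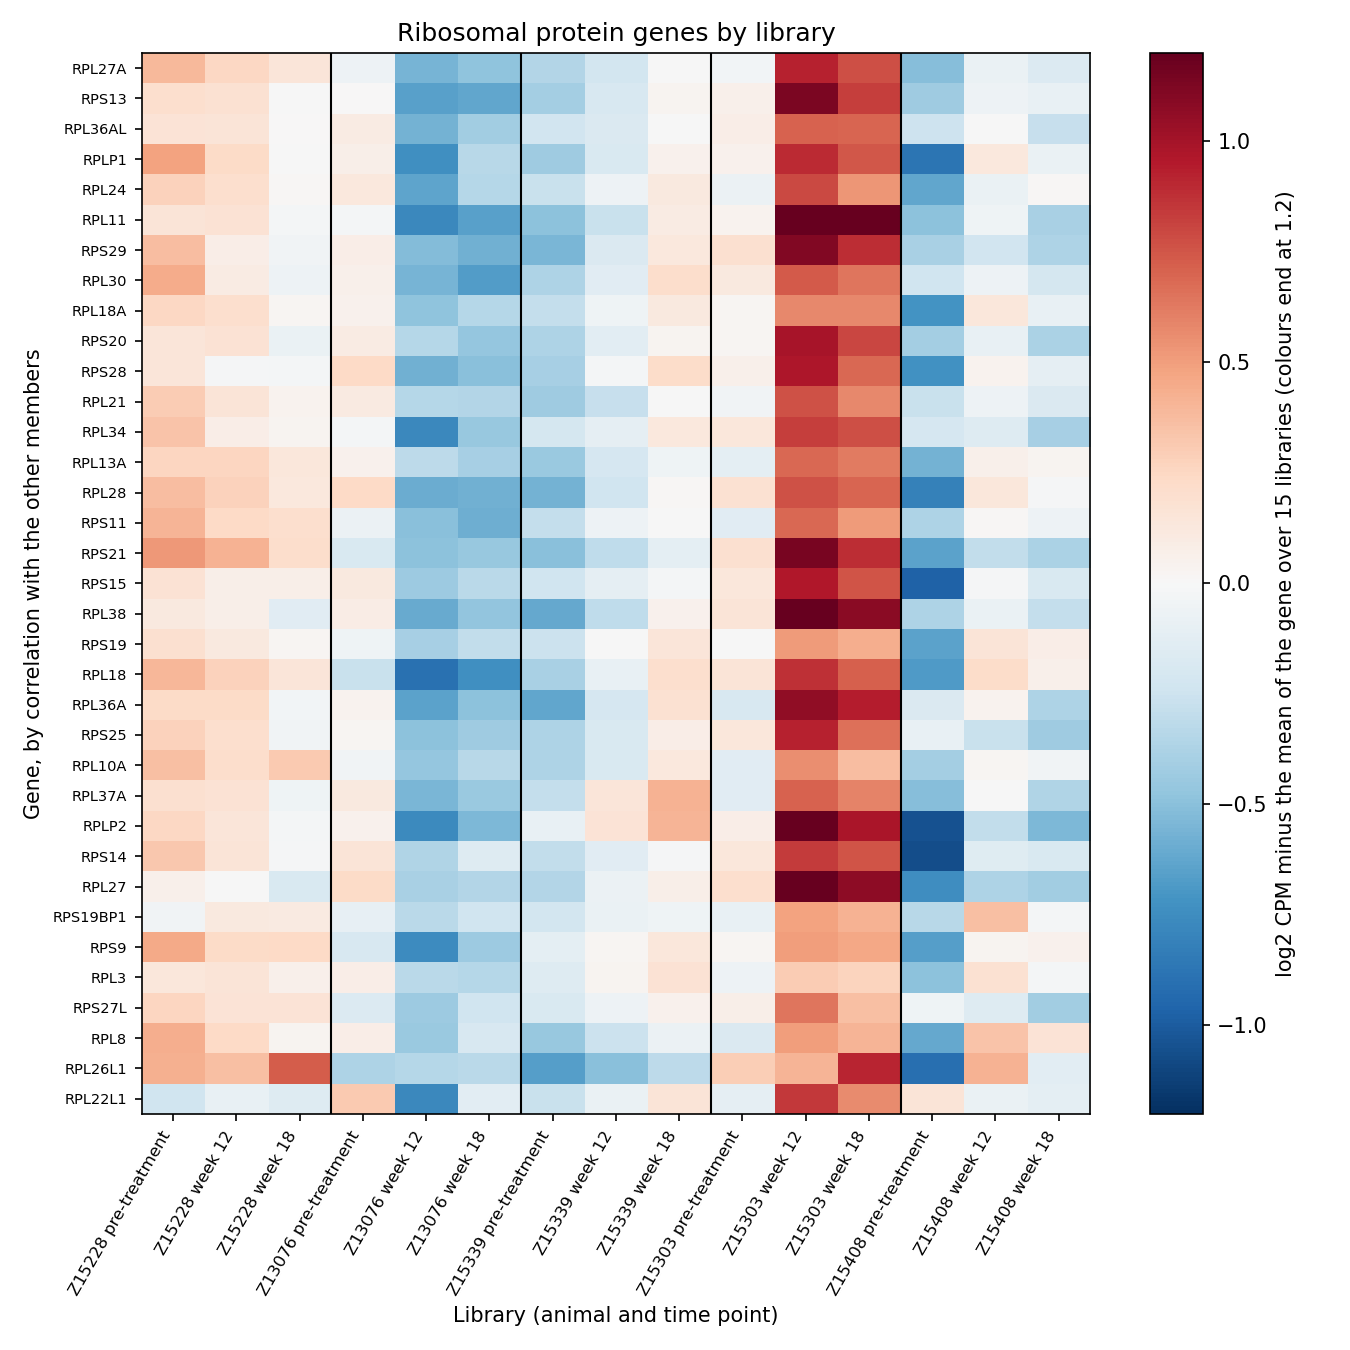
Log2 CPM of 35 tested genes in each of the 15 libraries, minus the mean of the gene over those libraries, with genes in order of their correlation with the other genes and libraries grouped by animal. Colours end at 1.2. Nearly every gene is red in Z15303 at week 12 and week 18 and blue in Z13076 at those times.

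At week 12 no ribosomal protein gene passed an adjusted p of 0.05 against pre-treatment in edgeR's quasi-likelihood test, and none of the 12880 features tested passed (0%). At an unadjusted p under 0.05, 0 of the 36 were higher (0.52% of all features) and 0 were lower (1.09%). DESeq2's Wald test gave the same counts for them, 0 called, 0 higher and 0 lower. Fitted log2 fold changes reached 0.45 with a median of 0.22, which is a 1.17-fold difference, beside a median of 0.0037 over all features. They lay above 0 for 35 of the 36 genes, and for 51% of all features. In edgeR's fit without the animal as a block, the standard errors, 0.15 to 0.38, were larger than most of these differences. The median was 0.23 for the large-subunit genes, 0.22 for the small-subunit genes and 0.09 for the 4 copies.

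Of the 5 animals, Z15303 moved that median most when left out. Without Z15303 it was 0.0081, and 23 of 36 genes lay above 0. It was 0.37 without Z13076 and 0.15 without Z15408. With the animal as a block, the median was 0.18 and 33 of the 36 lay above 0 (50.2% of all features), with 1 gene higher at an unadjusted p under 0.05 (1.44% of all features) and 0 lower (3.25%). That gene was *RPS19BP1*, with an adjusted p of 0.982 from edgeR's test, the smallest among the 36 and shared with other genes. None of the 36 passed with the block, where 0.00776% of all features did. The standard errors with the block were smaller, 0.12 to 0.22 with a median of 0.17, beside the median difference of 0.18.

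At week 18, which the study places after treatment was stopped, the values were close to those at week 12. No ribosomal protein gene passed against pre-treatment in edgeR's test (0% of all features passed). At an unadjusted p under 0.05, 0 were higher (0.613% of all features) and 0 were lower (1.08%), and DESeq2's test also gave 0 called, 0 higher and 0 lower. Their fitted log2 differences had a median of 0.19 and reached 0.42, and 35 of 36 lay above 0, as did 50.2% of all features. With the animal as a block the median was 0.14, 31 of 36 lay above 0 (49% of all features) and none passed (0.00776% of all features). At an unadjusted p under 0.05 there were then 0 higher (2.07% of all features) and 0 lower (3.78%), and the smallest adjusted p from edgeR's test was 0.856, for *RPL26L1*. Without Z15303 and without the block the median was 0.0065, with 18 of 36 above 0.

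Between week 12 and week 18 the median log2 fold change was −0.04, with 5 of 36 genes above 0 (48.9% of all features). No gene passed in edgeR's test (0% of all features), and 0 were higher (0.28%) or lower (0.225%) at an unadjusted p under 0.05. DESeq2's test gave the same counts for the 36. With the block 8 of 36 lay above 0 (49.3% of all features), none passed, and at an unadjusted p under 0.05 there were 0 higher (1.16%) and 0 lower (1.01%). Without Z15303 the median was 0.00092, with 18 of 36 above 0. The 3 comparisons share libraries, so their values are not independent. For all 36 genes the CPM ranges of the groups overlapped in each comparison. The same count was not made over all features, so the overlap is not shown to be particular to these genes.

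**Figure D3:**
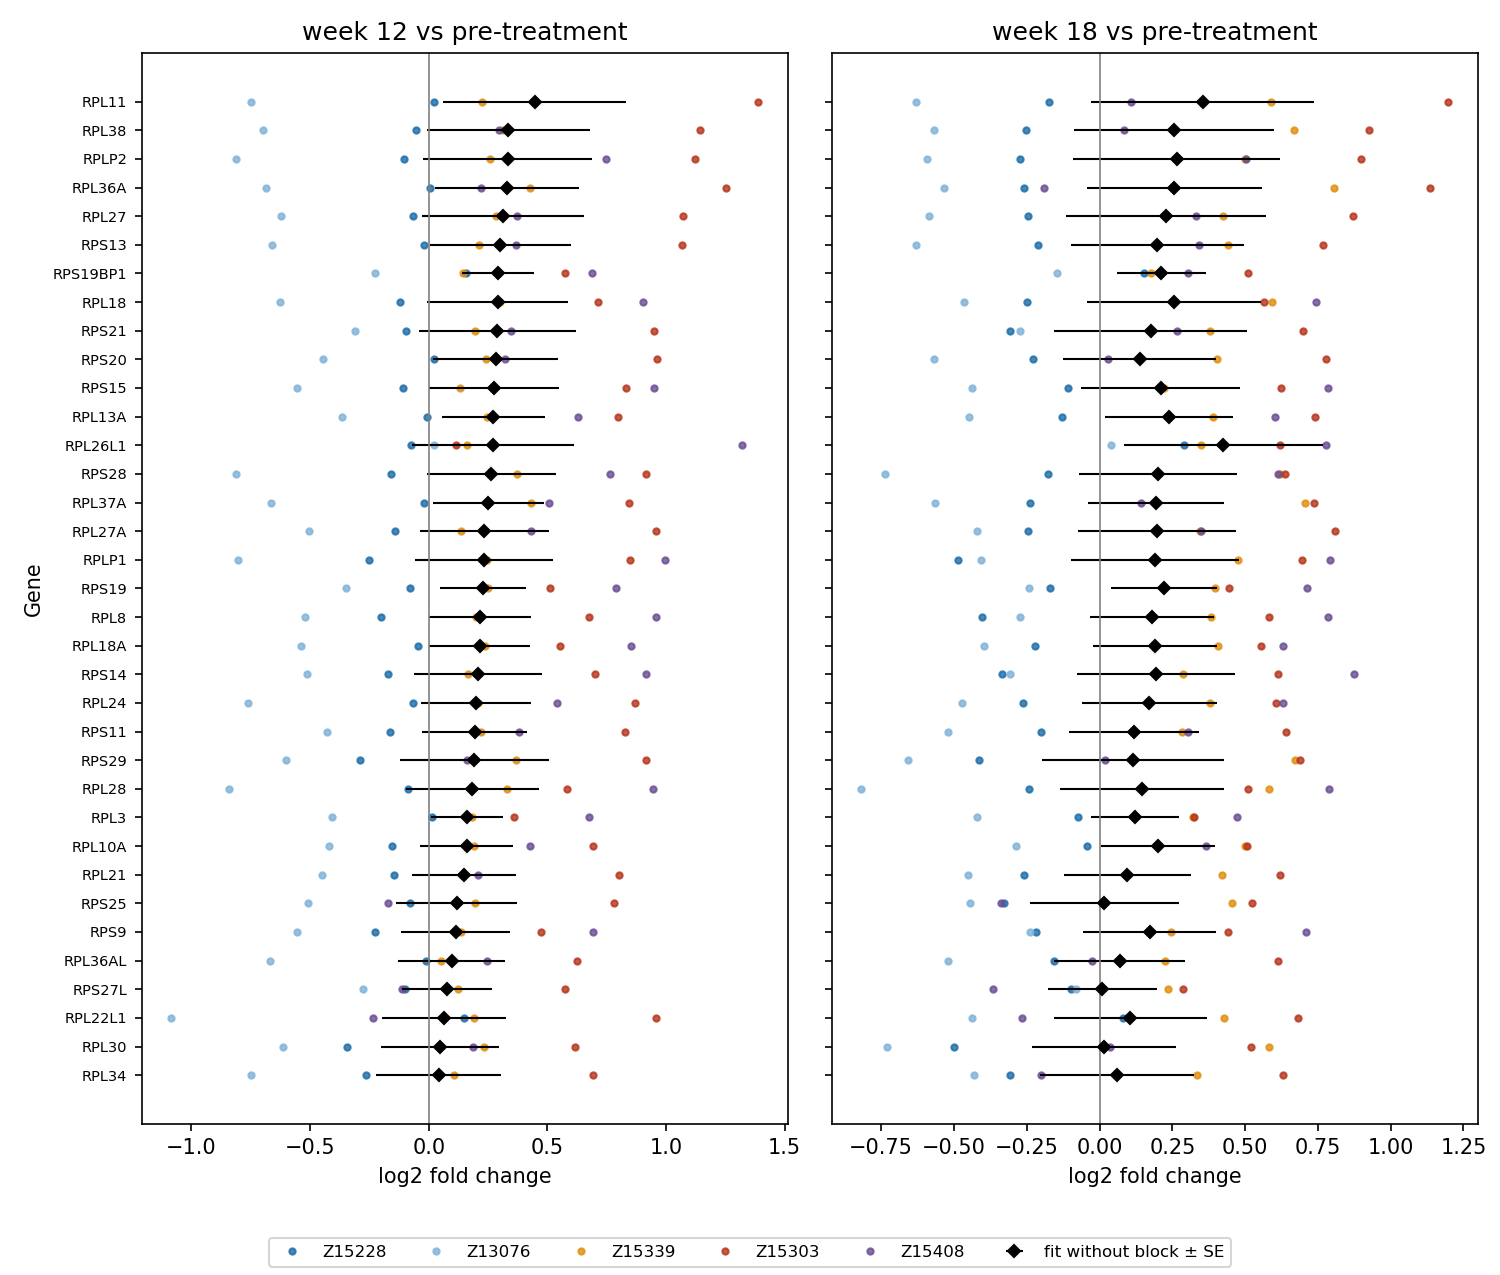
Log2 fold change of 35 tested genes at week 12 (left) and week 18 (right) against pre-treatment. Coloured points are the changes in each animal, and black diamonds with bars are the estimates ± standard error from edgeR's fit without the animal as a block. Points of Z15303 and Z15408 lie mostly to the right of 0 and those of Z13076 to the left, and the estimates lie near the middle, at most 0.45 at week 12.

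The genes moved as a set within each animal, and in opposite directions in different animals. From pre-treatment to week 12 the median log2 change was −0.09 in Z15228, where 6 of 36 genes were higher, and −0.56 in Z13076, where 1 was higher. It was 0.21 in Z15339 (36 higher), 0.80 in Z15303 (35 higher) and 0.47 in Z15408 (33 higher). In these pairs of libraries 47.3% to 51.2% of all features were higher. At week 18 the medians against pre-treatment were −0.24 in Z15228, −0.45 in Z13076, 0.41 in Z15339, 0.62 in Z15303 and 0.35 in Z15408, with 3, 1, 36, 35 and 30 genes higher. From week 12 to week 18 they were −0.14, 0.10, 0.20, −0.15 and −0.16 in the same order of animals.

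The 3 animals in which most of the genes were higher are those with shared library dates, and the 2 in which most were lower are those with dates of their own. Date and animal cannot be told apart here. Within the 3 animals, 9 of 36 genes were higher at an unadjusted p under 0.05 at week 12 (1.54% of all features) and 4 at week 18 (1.69%). The blocked fit on these animals gave a median log2 difference of 0.54 at week 12, with 30 of 36 genes higher at an unadjusted p under 0.05 (8.45% of all features) and 0 lower (7.85%). At week 18 it gave 0.53, with 29 higher (9%) and 0 lower (8.53%). The smallest adjusted p of that blocked fit in edgeR's test was 0.0640 at week 12 and 0.0696 at week 18, so none passed. Within Z15228 and Z13076 the same fit gave −0.34 and −0.37, with 9 and 16 genes lower (4.62% and 4.15% of all features) and 0 higher at either time (3.92% and 2.86%). With all animals but Z13076 in the blocked fit, 25 genes were higher at week 12 (4.06%) and 15 at week 18 (4.46%). The difference between both sets of animals was tested as an interaction term of the blocked fit. At week 12 its median was 0.83, and 32 of 36 genes had an unadjusted p under 0.05 (18.5% of all features). The smallest adjusted p from edgeR's test was 0.0525, shared by *RPS28* and *RPLP1*, and 0.0155% of all features passed. At week 18 the median difference was 0.83, with 32 of 36 genes (16.5% of all features) and a smallest adjusted p of 0.0818 in edgeR's test. Between week 12 and week 18 it was −0.0077, with 0 of 36 genes (4.79% of all features) and a smallest adjusted p of 0.997 from edgeR. The split by date was made with these directions already known, so its counts and p-values are not independent of them. *RPS28*, of the small subunit, is named for its value here.

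The acidic stalk of the large subunit, which recruits elongation factors, is represented by *RPLP1* and *RPLP2*. *RPLP1* stood before treatment at 801 CPM in Z15228, 603 in Z13076, 428 in Z15339, 595 in Z15303 and 314 in Z15408. At week 12 it stood at 674, 346, 507, 1070 and 627 CPM in the same order of animals, and at week 18 at 573, 455, 595, 963 and 544. Z15303 was highest after the start of treatment and Z15408 lowest before it, and the groups overlapped. In edgeR's fit without the animal as a block, its log2 fold change was 0.23 at week 12 and 0.19 at week 18. Each had a standard error of 0.29 and an edgeR adjusted p of 1.00. With the block it was 0.18 and 0.17, each with a standard error of 0.20. In the blocked fit, the change of *RPLP1* differed between animals with shared dates and the others by 1.21 at week 12 and 1.09 at week 18. The standard errors were 0.25 and 0.24. The animals were split with their directions of change already known, so the size of this difference is not independent of them. *RPLP2* had the largest ratio of highest to lowest library of the 36 genes, 4.74. It went from 126 CPM in Z15408 before treatment to 599 in Z15303 at week 12.

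*RPL11* encodes a large-subunit protein that, when free of the ribosome, binds MDM2 and so raises p53. Without the animal as a block it had the largest fitted difference at week 12, 0.45 on the log2 scale (standard error 0.38, edgeR adjusted p = 1.00). With the block this difference was 0.23 (standard error 0.21). Before treatment its level was 183 CPM in Z15228, 162 in Z13076, 117 in Z15339, 170 in Z15303 and 117 in Z15408. At week 12 it was 186, 96.4, 137, 445 and 159 CPM in that order, and at week 18 it was 163, 105, 177, 390 and 126. The level in Z15303 more than doubled while the other animals stayed between 96.4 and 186 CPM after the first sample. Without Z15303 the log2 fold change at week 12 was 0.0071. Its SD of log2 CPM over the 15 libraries, 0.62, was the largest of the 36 and was 0.33 without Z15303.

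*RPL3* and *RPL8* encode large-subunit proteins that lie near the peptidyl transferase centre, where the peptide bond is made. *RPL3* varied least of all 36 genes, with an SD of log2 CPM of 0.23. Its level was 1227, 1180, 1004, 1071 and 793 CPM before treatment in Z15228, Z13076, Z15339, Z15303 and Z15408, with a mean of 1055 ± 171 (SD, n = 5). At week 12 it was 1237, 888, 1139, 1376 and 1266 CPM (1181 ± 184), and at week 18 it was 1165, 881, 1254, 1341 and 1099 (1148 ± 175). The groups overlapped, and Z13076 was the lowest in both later groups. *RPL8* had means of 1089 ± 327, 1266 ± 338 and 1234 ± 203 CPM at pre-treatment, week 12 and week 18. It took 9.08% of the counts on the 38 genes, the most of any, and *RPL3* took 8.59%.

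*RPL13A* encodes a large-subunit protein that in human monocytes can leave the ribosome to silence inflammatory mRNAs after interferon gamma. Its values were 904, 779, 555, 697 and 508 CPM before treatment in the same order of animals, 900.2, 605, 658, 1213 and 786 at week 12, and 827, 571, 727, 1165 and 772 at week 18. It was among the 5 genes with the smallest p at both times, with log2 fold changes of 0.27 and 0.24 (both standard errors 0.22, edgeR adjusted p = 1.00). It was higher at week 12 in 3 of 5 animals and nearly equal in Z15228. *RPL36A* was the fifth such gene at week 12 (0.33 ± 0.30 on the log2 scale, standard error), and *RPL10A* at week 18 (0.20 ± 0.20). Without Z15303 the value of *RPL36A* at week 12 was 0.0045.

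Among the small-subunit genes, *RPS19*, the gene most often mutated in Diamond-Blackfan anaemia, had 977, 822, 715, 850 and 548 CPM before treatment in Z15228, Z13076, Z15339, Z15303 and Z15408. It had 925, 645, 850, 1212 and 949 CPM at week 12 and 868, 695, 942, 1158 and 899 at week 18. The 3 animals with shared dates were higher at both times and the other 2 lower. Its log2 fold changes were 0.23 and 0.22 (both standard errors 0.18, edgeR adjusted p = 1.00). *RPS14*, whose loss underlies the anaemia of a form of myelodysplastic syndrome, ranged from 340 CPM in Z15408 before treatment to 1271 in Z15303 at week 12. Between week 12 and week 18 the genes with the smallest p among those lower were *RPS20*, *RPS19BP1*, *RPS25*, *RPS27L* and *RPS13*, with log2 fold changes of −0.14, −0.08, −0.10, −0.07 and −0.10. Among those higher they were *RPL26L1*, *RPS9*, *RPL10A*, *RPL22L1* and *RPL34*, with 0.15, 0.06, 0.04, 0.04 and 0.02. All of these were smaller than their standard errors.

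**Figure D4:**
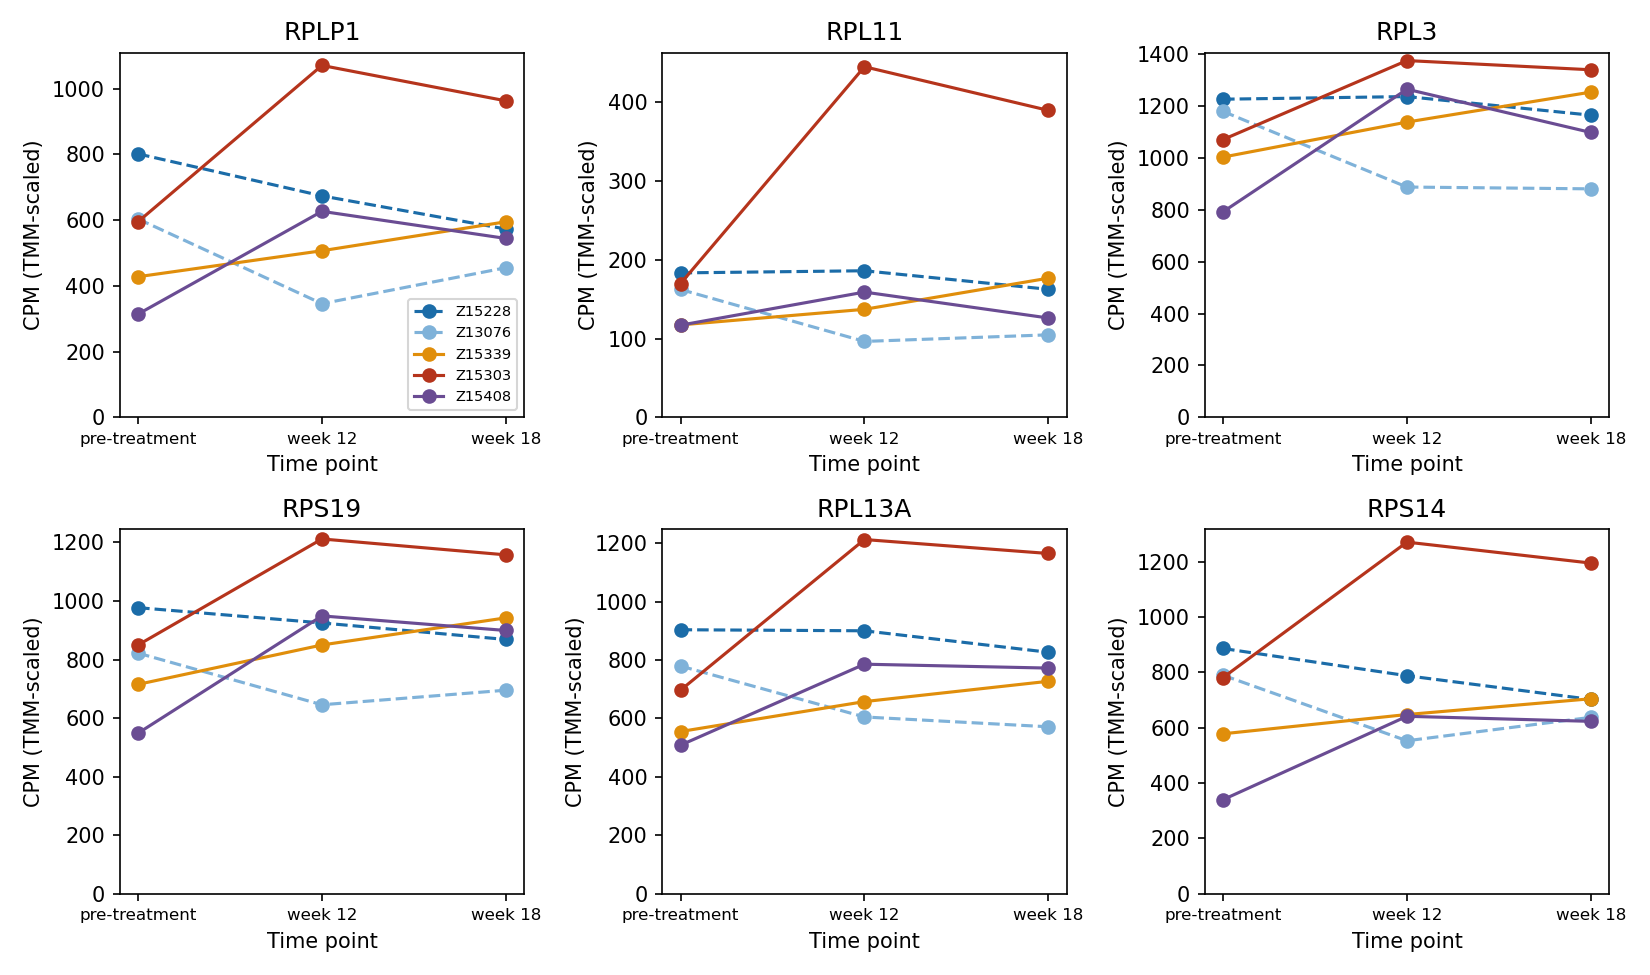
CPM of *RPLP1*, *RPL11*, *RPL3*, *RPS19*, *RPL13A* and *RPS14* by time point, with 1 line per animal and each axis starting at 0. Solid lines are the animals with shared library dates. Z15303 was highest at week 12 and week 18 in each panel, and in that of *RPS14* it went from 781 to 1271 and then to 1195 CPM.

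Of the copies, *RPL22L1*, a copy of *RPL22*, lay between 4.82 and 15.3 CPM (40 to 93 counts), highest in Z15303 and lowest in Z13076, both at week 12. *RPL26L1* lay between 3.20 and 11.9 CPM (28 to 83 counts). It was higher at week 18 than before treatment in 5 of 5 animals, as were 3.04% of all features, and the fitted log2 difference was 0.42 ± 0.34 (standard error, edgeR adjusted p = 1.00). *RPS27L*, a p53-induced copy of *RPS27*, lay between 35.8 and 76.0 CPM, and *RPL36AL* between 56.2 and 137. *RPS19BP1* had 52.7, 50.9, 46.6, 51.2 and 43.3 CPM before treatment in Z15228, Z13076, Z15339, Z15303 and Z15408, and 58.9, 43.5, 51.6, 76.2 and 69.8 at week 12. At week 18 it had 58.7, 46.0, 52.6, 72.9 and 53.5 CPM. It was higher in 4 of 5 animals at both times, with log2 fold changes of 0.29 and 0.21 (both standard errors 0.15, edgeR adjusted p = 1.00). Z13076 was lower at both times.

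The genes went up and down together across libraries. After the mean of each time point was taken out, the correlation between 2 ribosomal protein genes over the 15 libraries had a median of 0.884 over 630 pairs, and 99.8% of the pairs were above 0. Over the 82940760 pairs of all tested features the median was −0.0011 and 49.9% were above 0. The 15 libraries come from 5 animals and share depth and scaling, so these values describe the libraries and carry no p. With the animal means also taken out the median was 0.869, and without Z15303 it was 0.826. Large-subunit genes correlated with each other (median 0.905) about as much as with small-subunit genes (0.900), and small-subunit genes among themselves had a median of 0.883. In every library the mean deviations of both subunits from their own averages differed by no more than 0.09 on the log2 scale.

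The gene closest to the mean of the other 35 was *RPL27A* (r = 0.988, 15 libraries), followed by *RPS13* (0.979), *RPL36AL* (0.976), *RPLP1* (0.971) and *RPL24* (0.969). Lower values were those of *RPL22L1* (0.729), *RPL26L1* (0.744), *RPL8* (0.837) and *RPS27L* (0.875). Without Z15303 that of *RPL22L1* was 0.358. *RPL22L1* and *RPL26L1* are also the least counted of the 36. The size of the swing differed between genes, with an SD of log2 CPM from 0.23 to 0.62 and a median of 0.41, beside 0.32 over all features. Animal accounted for a median of 62.8% of the variance of a ribosomal protein gene, time point for 4.08% and the rest for 33.0%, against 51.9%, 6.23% and 37.8% over all features.

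**Figure D5:**
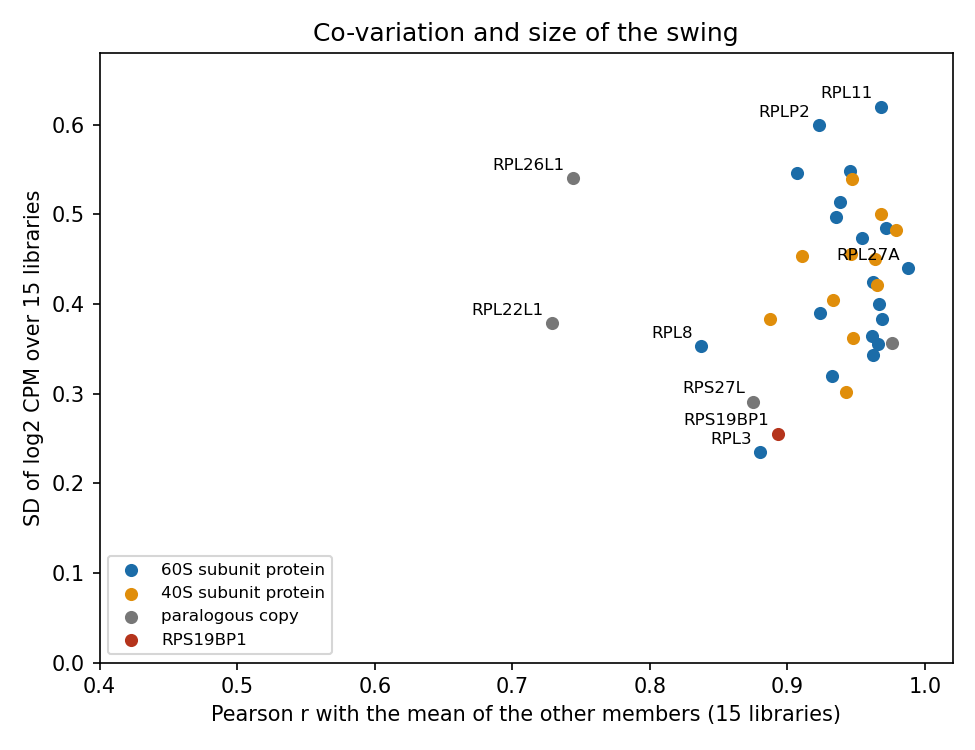
Each point is 1 of 35 tested genes, placed by its Pearson r with the mean of the other 35 over 15 libraries (horizontal) and the SD of its log2 CPM over the same libraries (vertical). Blue marks the large subunit, orange the small subunit, grey the copies and red *RPS19BP1*. Most points lie to the right, and *RPL22L1* and *RPL26L1* lie at 0.729 and 0.744. *RPL11* had the largest SD, 0.62, and *RPL3* the smallest, 0.23.

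*FAU* and *RACK1* encode small-subunit proteins under other names and followed the same pattern. *FAU*, which encodes a ubiquitin-like protein fused to RPS30, had the highest r with the mean of the 36 genes of any named feature outside them (0.990). *RACK1*, a signalling scaffold on the small subunit, had 0.944. Their log2 fold changes at week 12 were 0.17 (standard error 0.27) and 0.12 (standard error 0.21), and at week 18 0.16 (standard error 0.27) and 0.09 (standard error 0.21), with edgeR adjusted p = 1.00 in each case. The 10 features outside the set with the highest r also held *EIF3K*, a subunit of the initiation factor eIF3 (0.977), *NDUFC1*, of respiratory complex I (0.977), *ATP5MC2*, of ATP synthase (0.976), and 6 features that the table gives only as Ensembl identifiers. Of the 100 tested features with the highest r, 22 were among the 36 and 40 had only an Ensembl identifier. The 36 are a part of 12880 tested features. Of all 28865 features, 7212 had only an Ensembl identifier, and their number among those tested was not counted.

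Genes of the rest of the translation machinery were described as lists, and no gene of any of these lists passed in edgeR's test in any comparison, with or without the animal as a block. The 12 tested TOP mRNAs outside the set, *FAU*, *RACK1*, *TPT1* and *EEF1G* among them, had median log2 fold changes of 0.17 at week 12 and 0.14 at week 18, with 12 and 10 of 12 above 0. The mean of their log2 CPM had an r of 0.992 with that of the ribosomal protein genes, and 0.984 without Z15303. The smallest p in that list at week 12 belonged to *EEF1D*, an elongation factor subunit (0.38, standard error 0.25, edgeR adjusted p = 1.00), and at week 18 to *VIM*, vimentin (0.29, standard error 0.22, edgeR adjusted p = 1.00).

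The 29 initiation factors had medians of 0.07 and 0.08 at week 12 and week 18. The mean of their log2 CPM had an r of 0.938 with that of the ribosomal protein genes, and 0.885 without Z15303. Taken singly, 21 of the 29 correlated positively with the ribosomal protein genes. *EIF3A* had the smallest p of the 29 at week 12 (0.24, standard error 0.15). At week 18 it was *EIF4A1*, an RNA helicase (0.23, standard error 0.10). Both had an edgeR adjusted p of 1.00. The range of r within the list was wide. *EIF3K* had 0.977 and *EIF4G1*, the scaffold of the cap-binding complex, had −0.913, and the latter was −0.799 without Z15303. Of the 9 elongation and termination factors, 5 had a positive r, *EEF1D* the highest (0.947) and *ABCE1*, which recycles ribosomes, the lowest (−0.842).

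Factors that assemble ribosomes, taken as a list, did not follow the proteins. The 45 assembly factors had medians of 0.10 at week 12 and 0.10 at week 18, with 36 and 34 above 0, and the mean of their log2 CPM had an r of −0.169 with the ribosomal protein genes. Their own median pairwise r was 0.0174. *DKC1*, which encodes the pseudouridine synthase dyskerin, had the smallest p at week 12 (0.20, standard error 0.11, edgeR adjusted p = 1.00). Within this list *FBL*, the rRNA methylase fibrillarin, had an r of 0.972 and *HEATR1*, an early processing factor, one of −0.930. The extremes of r named in these lists were chosen after their values were seen. Of the 13 genes of RNA polymerase I and its factors, *POLR1C* was higher at an unadjusted p under 0.05 at both times, as were 0.52% and 0.613% of all features at week 12 and week 18. Its log2 fold changes were 0.33 and 0.40 (both standard errors 0.11, edgeR adjusted p = 1.00), with higher values in 5 of 5 animals (2.23% and 3.04% of all features), and its r with the ribosomal protein genes was −0.0729. Of the 17 regulators, *EIF4EBP1*, a translation repressor and mTOR target, was the only one higher at an unadjusted p under 0.05 at week 18 without the block (0.36, standard error 0.16, edgeR adjusted p = 1.00), beside 0.613% of all features, and none was at week 12. With the block 2 of the 17 were higher at week 18 (2.07% of all features).

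The mitochondrial ribosome is a separate machine, and the 63 of its genes that were listed were all tested. Their median pairwise r was 0.296, below that of the cytosolic set, and the mean of their log2 CPM had an r of 0.863 with it. Their median log2 fold changes were 0.08 at week 12 and 0.10 at week 18, with 51 and 53 of 63 above 0. *MRPS34* had the smallest p at week 12 (0.28, standard error 0.12, edgeR adjusted p = 1.00) and *MRPL27* at week 18 (0.30, standard error 0.12, edgeR adjusted p = 1.00).

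Markers of the cell types in PBMCs were set beside these values. The 8 T-cell markers summed to 1455 to 2078 CPM before treatment, 1720 to 2247 at week 12 and 1849 to 2034 at week 18, and their mean log2 CPM had an r of 0.634 with the ribosomal protein genes, or 0.288 without Z15303. The markers did not share that direction, since 4 of the 8 had an r above 0 and 4 below, from −0.869 to 0.849 with a median of −0.046. The 8 B-cell markers summed to 239 to 1014, 137 to 516 and 175 to 427 CPM. All 7 tested B-cell markers were lower at week 12 and week 18 in 5 of 5 animals. Of all features, 3.45% and 3.49% were higher in 0 of 5. The median log2 fold changes of the 7 markers were −0.87 and −1.05, and none passed in edgeR's test. At an unadjusted p under 0.05, 3 and 4 of the 7 were lower (1.09% and 1.08% of all features), and 7 and 7 with the block (3.25% and 3.78%). The r of their mean log2 CPM with the ribosomal protein genes was 0.252, or 0.603 without Z15303. No marker of either list was at 0 in a whole group. For log2 total counts the r was −0.462 over 15 libraries and 0.714 over the 12 libraries without Z15303, so its sign rested on that animal. Naive T-cell, NK-cell, monocyte, neutrophil, platelet, red blood cell and plasma cell markers had values of r between −0.283 and 0.480. Without Z15303 these lay between −0.023 and 0.434. For the 6 platelet markers the r was 0.475, and −0.023 without Z15303. The week 12 and week 18 libraries of Z15303 had the highest platelet sums of the 15, 8739 and 10569 CPM. The part of depth and of cell composition in the spread between libraries was not tested.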

How the data were processed

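PBMC RNA-seq of 5 animals at 3 time points was analysed. The authors made cDNA from total RNA with SMART-Seq v4 and Nextera XT and aligned the reads with STAR 2.7.9a to the *M. nemestrina* genome, Ensembl release 95. They deposited raw counts per gene from STAR's gene counting, without normalization, filtering or pooling. Totals per library were 5610597 to 10379572. Groups and animals came from the labels, and each animal is a replicate number.

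Counts were analysed in R 4.3.3. The test was edgeR 4.0.16's quasi-likelihood F test on all 15 libraries, with TMM, filterByExpr (minimum count 10), the time point as the only term and Benjamini-Hochberg adjustment over 12880 features at 0.05. Standard errors are the absolute log2 fold change over the square root of F. Log2 CPM used a prior count of 2. Alternatives were the animal as a block, DESeq2 1.42.0, other scalings and filters, and leaving out animals. Libraries of the same animal deviated together (mean r across genes 0.551, lowest 0.351, against −0.137 between animals), so replicate numbers pair the samples. Both fits were tested on simulated data with known changes. There the animal effects were drawn separately for each gene, so a swing shared by the ribosomal protein genes within an animal was not simulated. Genes and lists were chosen with earlier results of these data known. Named genes include the 5 members with the smallest p in each direction and comparison, taken from the fit without the block. Others are a set of well-known members and copies, and the 5 at each end of mean CPM and of correlation. The 10 outside features with the highest correlation, and the 2 smallest p of each other list, are also named. Fold changes of ribosomal protein genes named one by one are from the fit without the block unless stated. Correlations without Z15303, the interaction with dates, and blocked fits on subsets of animals were added after the data were seen. Sequences, gene lengths and coordinates were not used here, and not every gene that the rule names is reported here.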

Additional observations from a re-analysis of the deposited data

Results flagged for a closer look

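In 13 of 114 gene and time point groups of 5 animals, the highest library lay further from the other 4 than Dixon's 95% limit allows. Chance gives about 1 in 20 such groups, and groups of different genes in the same libraries are not independent. In each case the library was that of Z15303. At week 12 its values were 445 CPM for *RPL11* (others 96.4 to 186), 509 for *RPL27* (160 to 209), 587 for *RPL38* (157 to 250), 659 for *RPS15* (250 to 355), 671 for *RPS20* (267 to 381), 362 for *RPS28* (124 to 189) and 413 for *RPS29* (133 to 202). At week 18 they were 390 CPM for *RPL11* (105 to 177), 442 for *RPL27* (158 to 221), 504 for *RPL38* (171 to 248), 963 for *RPLP1* (455 to 595), 1195 for *RPS14* (623 to 705) and 572 for *RPS15* (271 to 354). No group before treatment was so marked. Both libraries of Z15303 were also the shallowest of the 15, and the part of depth was not tested.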

How the results depend on the processing

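No ribosomal protein gene passed an adjusted p of 0.05 in any comparison under any setting run, and with the animal as a block 1, 1 and 0 of all features did at week 12, week 18 and between them (27, 51 and 8 with DESeq2). At an unadjusted p under 0.05, the count higher at week 12 was 0, and 1 with the replicate block in edgeR or in DESeq2, 9 in the 3 animals with shared dates and 30 there with the block. Leaving out each animal gave 0 to 1, and 0 to 25 with the block, the most without Z13076. At week 18 it was 0, and 4 and, with the block, 29 in the 3 animals. It was 0 without any 1 animal and, with the block, 0 to 15, again the most without Z13076. In Z15228 and Z13076 with the block, 9 and 16 were lower, with medians of −0.34 and −0.37. The split into these animals and the 3 with shared dates was made with the directions of change already known. Its counts are not independent of those directions. Leaving out each animal, the median log2 fold change lay between 0.0081 and 0.37 at week 12, 0.0065 and 0.32 at week 18, and −0.10 and 0.00092 between them, each time nearest 0 without Z15303. The mean change in share of counts was 0.0314 to 0.330, 0.0249 to 0.262 and −0.103 to −0.0065 percentage points. The median pairwise r was 0.861 to 0.894 under other scalings, deviations and filters and 0.826 to 0.934 on leaving out animals.

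Between week 12 and week 18, leaving out each animal gave −0.018 to 0.12 for *RPL10A*, −0.062 to 0.17 for *RPL22L1*, −0.033 to 0.067 for *RPL34*, −0.11 to 0.011 for *RPS27L* and −0.11 to 0.0018 for *RPS19BP1*. The 3 animals gave −0.0036, −0.061 and −0.020 for the first 3 of these. The cause was not tested. In edgeR, at an adjusted p under 0.05, the replicate block changed no call of a ribosomal protein gene or of a gene in the other lists. DESeq2 with the block also called 0 ribosomal protein genes, and calls in the other lists are given from edgeR only. At an unadjusted p under 0.05 the block in edgeR moved counts in those lists. Among them were B-cell markers lower (3 to 7 at week 12, 4 to 7 at week 18), mitochondrial ribosomal protein genes higher (1 to 3, 1 to 4) and regulators higher at week 18 (1 to 2). Genes of under 100 counts, such as *RPL26L1* and *RPL22L1*, are limited by depth.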
